A study of Mus musculus with 4 samples.

Results

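The genes described here are Hif1a and 9 enzymes of glycolysis, namely Hk2, Gpi1, Pfkl, Aldoa, Tpi1, Pgk1, Eno1, Pkm and Ldha. They were chosen by name as 10 rows of a table of 13834 genes, without use of their values. Earlier results of these data were known at the time. All 10 were among the 12542 genes that passed the filter on low counts. The counts come from thioglycolate-elicited peritoneal macrophages, which are phagocytes drawn into the abdominal cavity by an irritant broth and washed out 3 days later. There were 2 samples from Dnmt1fl/fl mice and 2 from Dnmt1KO mice, all 10 weeks old. Both genotypes carry a floxed gene for Dnmt1, the methyltransferase that copies DNA methylation onto new strands. The Dnmt1KO mice also express Cre recombinase from the LysM promoter, so the deletion is aimed at myeloid cells and not at other cells of the lavage. The labels call the controls wt, and they name isolation as the only treatment. Whether each sample came from 1 mouse or a pool is not given in the sources used here, so p-values measure the spread between these samples, which may be technical. The design asks which transcripts differ between macrophages with and without the Cre deletion.

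Glycolysis breaks glucose down to pyruvate in the cytosol and yields ATP without oxygen. Lactate dehydrogenase then turns pyruvate into lactate, which regenerates the NAD that the pathway needs. Macrophages raise glycolysis when inflammatory signals activate them. HIF-1alpha, the product of Hif1a, is a transcription factor kept low by oxygen-dependent hydroxylation and degradation of the protein, and many glycolytic genes are among its known targets.

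Total counts ran from 20228071 to 24198943 per sample. Dnmt1 itself was at 86.6 and 67 CPM (counts scaled to a library of fixed total, with TMM factors from edgeR) in Dnmt1fl/fl replicates 1 and 2, and at 37 and 42.7 CPM in Dnmt1KO replicates 1 and 2. Both Dnmt1KO samples were thus below both controls, with RNA of the gene still present. All 7 macrophage markers examined, among them Adgre1 and Csf1r, were at 121 CPM or more in each sample. Dnmt1KO replicate 1 stood apart from the other samples. Its log2 CPM correlated with theirs at 0.946 to 0.970 across genes, while the other 3 samples correlated with one another at 0.981 to 0.989. The fold changes of the 10 genes are therefore given with and without it.

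No glycolytic enzyme passed edgeR's quasi-likelihood test between the genotypes, and the highest levels were those of Dnmt1KO replicate 1. In that sample 8 of the 9 enzymes, Hk2 being the exception, were 1.78 to 3.77 times as high as in Dnmt1KO replicate 2. The same 8, grouped here after their values were seen, also ran higher in Dnmt1fl/fl replicate 2 than in Dnmt1fl/fl replicate 1, by 0.14 to 0.64 on the log2 scale. Hif1a and Hk2 varied little across the 4 samples. In these bulk samples, a change in the share of a cell type and a change in RNA per cell cannot be told apart. No member had an adjusted p under 0.05, and the background was 0% of all genes tested. No member had an unadjusted p under 0.05 either, against 0.279% of all genes, and their unadjusted p ran from 0.175 to 0.769 in edgeR. The smallest two-sided p that an exact permutation of 2 samples against 2 allows is 0.333.

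Sequence upstream of the start site is shown for 4 of these genes, Ldha and Pgk1 because the gap between the Dnmt1KO samples was widest in them, and Hif1a and Hk2 because theirs hardly moved. The capitals mark ACGTG or GCGTG on either strand, the core letters that HIF-1 is known to bind, and overlapping matches count as 1 stretch. Each run holds the 250 bases before a RefSeq start, from build GRCm38.p6, with no base in an annotated GENCODE exon. The Ldha and Hif1a windows lie inside the span of the gene, since other transcripts start further upstream. The Ldha window printed is chr7:46845554-46845803 on the plus strand, with stretches that begin at positions -145, -48 and -34 from the start. A further Ldha window, chr7:46846832-46847081, also without exon bases, held 1 stretch, at -59, and is not printed. The Pgk1 window is chrX:106186850-106187099 on the plus strand, with stretches at -150 and -131. The Hif1a window is chr12:73907617-73907866 on the plus strand, with stretches at -135 and -70. The Hk2 window is chr6:82774455-82774704 on the minus strand, with stretches at -226 and -52.
Ldha: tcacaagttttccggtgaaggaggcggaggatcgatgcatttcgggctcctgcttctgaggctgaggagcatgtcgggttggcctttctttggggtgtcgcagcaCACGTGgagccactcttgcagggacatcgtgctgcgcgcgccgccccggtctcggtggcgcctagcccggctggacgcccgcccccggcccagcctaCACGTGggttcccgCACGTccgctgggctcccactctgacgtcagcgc
Pgk1: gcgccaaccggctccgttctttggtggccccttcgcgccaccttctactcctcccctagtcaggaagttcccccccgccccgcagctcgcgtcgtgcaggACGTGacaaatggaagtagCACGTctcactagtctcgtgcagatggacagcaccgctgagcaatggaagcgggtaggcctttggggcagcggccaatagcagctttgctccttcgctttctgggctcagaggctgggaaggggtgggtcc
Hif1a: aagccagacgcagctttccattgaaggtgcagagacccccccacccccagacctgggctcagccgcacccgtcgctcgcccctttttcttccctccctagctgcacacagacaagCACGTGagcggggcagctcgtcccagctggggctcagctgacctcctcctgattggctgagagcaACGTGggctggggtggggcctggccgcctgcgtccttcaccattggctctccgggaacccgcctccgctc
Hk2: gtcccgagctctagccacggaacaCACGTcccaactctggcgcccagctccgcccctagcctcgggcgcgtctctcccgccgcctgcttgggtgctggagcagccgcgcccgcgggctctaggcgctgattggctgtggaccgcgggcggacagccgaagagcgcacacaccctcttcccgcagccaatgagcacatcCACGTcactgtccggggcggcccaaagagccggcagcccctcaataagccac

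All 10 genes had a window in the RefSeq table, 16 windows in all because several genes have more than 1 start. The letters were found in 12 of the 16, or 75%, and in 38.6% of the 32851 RefSeq windows of the same length. Some windows of Aldoa overlap each other, as do some of Eno1, so their shared stretches were counted in more than 1 window. At least 1 window of 8 genes held the letters, and no window of Gpi1 or Tpi1 did. The share of all RefSeq genes with such a window was not computed. The windows of the 10 genes were also rich in CG dinucleotides, the sites that Dnmt1 methylates, with a median of 17.5 against 6 over all windows. The lowest was 0 in one Aldoa window and the highest 25, in the Ldha and Hk2 windows printed above. Both sets of letters contain CG, so windows with more CG have more places where they can occur. Windows of equal CG content were not compared. The letters were thus present both upstream of the steady genes Hif1a and Hk2 and upstream of the variable genes Ldha and Pgk1. A match of letters is a description, and neither binding nor methylation was measured at these windows.

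Hif1a lies on chromosome 12 from 73901375 to 73947530 (GRCm38, GENCODE M21, as for all positions here). It was at 143 and 162 CPM in Dnmt1fl/fl replicates 1 and 2, and at 138 and 129 CPM in Dnmt1KO replicates 1 and 2. Both Dnmt1KO samples were below both controls, by a narrow margin, and Hif1a was the only member whose genotypes did not overlap. Such a pattern, lower in Dnmt1KO, was seen in 8.56% of all genes, and the reverse pattern, seen in no member, in 8.14%. The log2 fold change of Hif1a was -0.19 (standard error 0.22, edgeR unadjusted p = 0.411, adjusted p = 1.00). Leaving out any 1 sample kept it between -0.28 and -0.09, with -0.24 without Dnmt1KO replicate 1. After a correction for transcript length, described further on, it was -0.09 and the genotypes overlapped. The transcript level says nothing of the protein, which was not measured here.

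Hk2, on chromosome 6 from 82725025 to 82774454, encodes an inducible hexokinase that traps glucose in the cell as glucose 6-phosphate. Its level was 64.8 and 57.9 CPM in Dnmt1fl/fl replicates 1 and 2, and 56.3 and 61 CPM in Dnmt1KO replicates 1 and 2. The genotypes overlapped, and the 4 values lay close together. The log2 fold change was -0.06 (standard error 0.21, edgeR adjusted p = 1.00), and its sign depended on the samples taken, with 0.02 when Dnmt1fl/fl replicate 1 was left out. In Hk2 the sample that was highest for the other enzymes, Dnmt1KO replicate 1, was the lowest of the 4, though not after the correction for transcript length given further on.

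**Figure D1:**
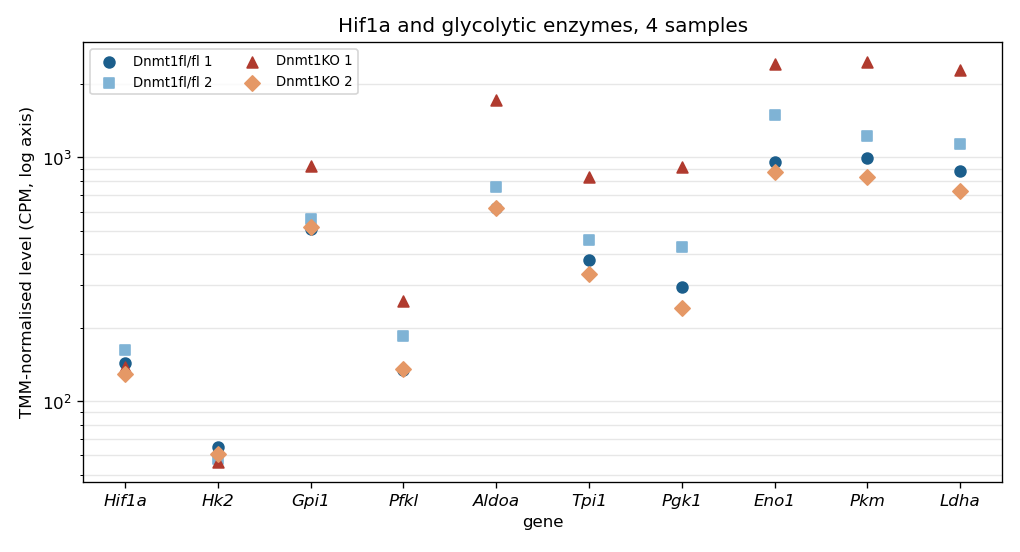
The level of each gene in each sample, in CPM on a log axis, with blue symbols for the Dnmt1fl/fl samples and red or orange symbols for the Dnmt1KO samples. From Gpi1 to Ldha the Dnmt1KO replicate 1 triangle is highest, reaching 2453 CPM in Pkm, while the 4 symbols of Hif1a and Hk2 lie close together.

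Gpi1 and Pfkl, which act after the hexokinase step, had the narrowest gaps of the 8 between the Dnmt1KO samples. Gpi1, on chromosome 7 from 34201330 to 34230336, encodes the isomerase that makes fructose 6-phosphate. It was at 508 and 558 CPM in the Dnmt1fl/fl samples, and at 919 and 517 CPM in Dnmt1KO replicates 1 and 2. Dnmt1KO replicate 2 thus lay between the controls, and Dnmt1KO replicate 1 above them. Its log2 fold change was 0.43 (standard error 0.34, edgeR adjusted p = 1.00), and -0.05 without Dnmt1KO replicate 1. Pfkl, on chromosome 10 from 77986947 to 78010083, encodes the liver-type subunit of phosphofructokinase, which commits sugar to glycolysis. It was at 134 and 186 CPM in the Dnmt1fl/fl samples and at 258 and 136 CPM in the Dnmt1KO samples. Again a single Dnmt1KO sample was above the controls and the other lay between them. Pfkl had a log2 fold change of 0.30 (standard error 0.37, edgeR adjusted p = 1.00), and -0.24 without Dnmt1KO replicate 1.

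Aldoa and Tpi1 act on the sugar as it is cut into triose phosphates. Aldoa, on chromosome 7 from 126795234 to 126800751, encodes the aldolase that cuts fructose 1,6-bisphosphate. Its level was 623 and 753 CPM in Dnmt1fl/fl replicates 1 and 2, and 1720 and 622 CPM in Dnmt1KO replicates 1 and 2. Apart from Dnmt1KO replicate 1 the samples were close, and Dnmt1KO replicate 2 was level with the lower control. Aldoa had the highest log2 fold change of the 10 genes, at 0.77 (standard error 0.50, edgeR adjusted p = 1.00), and it became -0.15 without Dnmt1KO replicate 1. Tpi1, on chromosome 6 from 124810586 to 124814296, encodes the isomerase that interconverts the triose phosphates. It was at 380 and 460 CPM in the Dnmt1fl/fl samples and at 828 and 331 CPM in the Dnmt1KO samples. The Dnmt1KO samples fell on opposite sides of the controls. Its log2 fold change was 0.47 (standard error 0.45, edgeR adjusted p = 1.00), and -0.34 without Dnmt1KO replicate 1.

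Pgk1 had the widest gap between replicates of the 10 genes. Pgk1, on chromosome X from 106187100 to 106203699, encodes the kinase of the first ATP-yielding step. It was at 294 and 430 CPM in Dnmt1fl/fl replicates 1 and 2, and at 915 and 242 CPM in Dnmt1KO replicates 1 and 2. The gap between the Dnmt1KO samples was 1.92 on the log2 scale, against 0.55 between the controls, and both controls lay inside it. Pgk1 had a log2 fold change of 0.68 (standard error 0.62, edgeR adjusted p = 1.00), and -0.58 without Dnmt1KO replicate 1. Of the 100-base stretches in Pgk1 transcripts, 51.7% also occur in transcripts of 3 other genes, retrocopies such as Pgk1-rs7 among them, so how its reads were assigned is uncertain.

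Eno1, on chromosome 4 from 150236721 to 150248879, encodes the enolase found in most tissues. Its level was 960 and 1497 CPM in the Dnmt1fl/fl samples, and 2419 and 875 CPM in the Dnmt1KO samples. Here the controls differed most from each other, by 0.64 on the log2 scale. Its log2 fold change was 0.42 (standard error 0.53, edgeR adjusted p = 1.00), and -0.49 without Dnmt1KO replicate 1. Pkm, on chromosome 9 from 59656368 to 59679375, encodes the muscle pyruvate kinase isoforms. It was at 996 and 1226 CPM in the Dnmt1fl/fl samples, and at 2453 and 833 CPM in the Dnmt1KO samples. That of Pkm was 0.56 (standard error 0.52, edgeR adjusted p = 1.00), and -0.42 without Dnmt1KO replicate 1. Both genes therefore had Dnmt1KO replicate 1 above and Dnmt1KO replicate 2 below the controls. Shared stretches made up 20.4% of Eno1 and 12.3% of Pkm. All 4 deposited counts were fractional in both, but also in Aldoa, with 0.0% shared, while in Pgk1 all 4 were whole.

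Ldha, on chromosome 7 from 46841475 to 46855627, encodes the lactate dehydrogenase subunit that favours lactate. It was at 882 and 1139 CPM in Dnmt1fl/fl replicates 1 and 2, and at 2288 and 727 CPM in Dnmt1KO replicates 1 and 2. Dnmt1KO replicate 1 was 3.15 times as high as Dnmt1KO replicate 2, and the controls lay between. Ldha had a log2 fold change of 0.58 (standard error 0.55, edgeR adjusted p = 1.00), and -0.48 without Dnmt1KO replicate 1.

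Over the 10 genes, 8 reached a log2 fold change of 0.2 or more toward higher in Dnmt1KO, against 21.8% of all genes tested. None was lower by 0.2 or more, against 19.7% of all genes. The median log2 fold change was 0.45, against 0.00 for all genes. Without Dnmt1KO replicate 1 these counts turned round, with 0 genes higher, 7 lower and a median of -0.29. Of all genes in that fit, 20.9% were higher and 21.2% lower by 0.2 or more, with a median of 0.00. Without Dnmt1KO replicate 2 the median was 0.98, and 6 of the 10 (Gpi1, Aldoa, Tpi1, Pgk1, Pkm and Ldha) had an adjusted p under 0.05 in edgeR, from 0.00916 for Aldoa to 0.0479 for Gpi1. That fit holds a single Dnmt1KO sample, assumed to vary like the controls, and 1061 genes, or 8.32% of those tested, passed in it. For all 8 moving enzymes the pooled SD between replicates, 0.42 to 1.00 on the log2 scale, was near or above the fold change itself, 0.30 to 0.77.

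**Figure D2:**
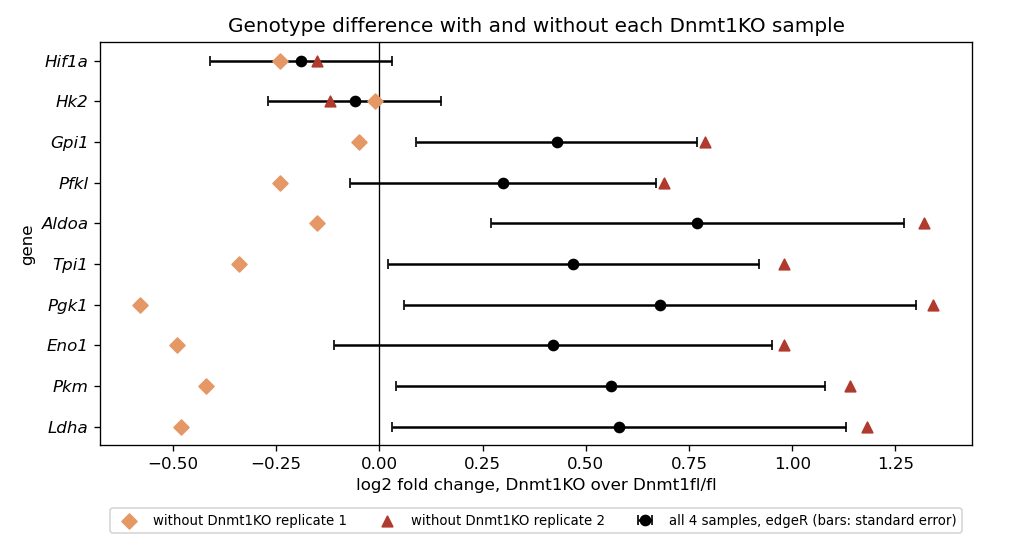
The log2 fold change of Dnmt1KO over Dnmt1fl/fl for each gene from edgeR, with standard errors as bars for all 4 samples, and without either Dnmt1KO sample as orange or red symbols. From Gpi1 to Ldha the sign turns negative when Dnmt1KO replicate 1 is left out, from -0.58 in Pgk1 to -0.05 in Gpi1.

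Dnmt1KO replicate 1 was the highest sample in 8 of the 10 members, beside 38.8% of all genes tested. Dnmt1fl/fl replicate 2 came second in the same 8 members, and 23.5% of all genes had these samples in the first and second place. These are the 8 enzymes grouped above after their values were seen, so their shared top sample is a description. In 6 of the 10 (Aldoa, Tpi1, Pgk1, Eno1, Pkm and Ldha) Dnmt1KO replicate 2 was also the lowest. Of all genes, 19.3% had Dnmt1KO replicate 1 highest and Dnmt1KO replicate 2 lowest, and 14.1% had the full order with Dnmt1fl/fl replicate 2 second. In Gpi1 and Pfkl the lowest sample was Dnmt1fl/fl replicate 1. Summed, the 9 enzymes took 0.491% and 0.654% of all counts in the Dnmt1fl/fl samples, 1.08% in Dnmt1KO replicate 1 and 0.453% in Dnmt1KO replicate 2. Enzymes of the same pathway in the same 4 libraries are not independent of one another.

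Levels were compared between genes only after division by length, in CPM per kilobase, and the order depended in part on the length used. By the union of annotated exons, Ldha had the highest level in each sample, at 305 ± 54.7 (SD, n = 2) in Dnmt1fl/fl and 455 ± 334 (SD, n = 2) in Dnmt1KO. By the longest transcript, a measure added after seeing the data, Ldha was highest in 2 samples and Eno1 in the other 2. Aldoa, at 236 ± 31.7 (SD, n = 2) and 402 ± 267 (SD, n = 2) CPM per kilobase of exon, and Pkm and Eno1 lay close to Ldha, and these 4 could not be put in 1 order. Pkm was above Eno1 in 3 of the 4 samples by exon length and in 0 by the longest transcript. Pgk1 and Tpi1 came below these 4 in each sample by both lengths, and Pgk1 was above Tpi1 in 2 samples by exon length and in 0 by the longest transcript. Gpi1 was at 78.7 to 142 CPM per kilobase of exon. Pfkl, at 20.1 to 38.7, was above Hif1a, at 21.9 to 27.5, in 2 samples by exon length and in 4 by the longest transcript. Hk2 was lowest in each sample by both lengths, at 9.44 to 10.9 CPM per kilobase of exon.

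Other genes of the pathway were counted from 8 lists that hold 103 symbols, of which 89 were tested. Among the 89, 0 had an adjusted p under 0.05 from edgeR and 1, Vegfa, an unadjusted p under 0.05. A log2 fold change of 0.2 or more was reached by 40 toward higher and 8 toward lower in Dnmt1KO, beside 21.8% and 19.7% of all genes, and the median was 0.14. Without Dnmt1KO replicate 1 the counts were 14 higher and 24 lower of the 89, beside the 20.9% and 21.2% of all genes in that fit. Dnmt1KO replicate 1 was the highest sample in 56 of the 89, beside 38.8% of all genes. Genotypes did not overlap in 11 of the 89 toward higher and 4 toward lower in Dnmt1KO, beside 8.14% and 8.56% of all genes.

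Among other glycolytic isoenzymes, 13 of 20 were tested, 7 were higher and 2 lower by 0.2 or more, and the median log2 fold change was 0.30. Leaving out Dnmt1KO replicate 1 gave 2 higher and 3 lower. Gapdh, the dehydrogenase of the triose step and the reference gene of the study's quantitative PCR, was at 1170 and 1641 CPM in Dnmt1fl/fl replicates 1 and 2. It was at 2572 and 1154 CPM in Dnmt1KO replicates 1 and 2, with the same order of samples as in Aldoa, Tpi1, Pgk1, Eno1, Pkm and Ldha. The log2 fold change of Gapdh was 0.41 (standard error 0.44, edgeR adjusted p = 1.00), and -0.29 without Dnmt1KO replicate 1. Ldhb, the subunit that favours pyruvate, had a log2 fold change of 0.76 and the aldolase Aldoc of 0.66. The neuronal enolase Eno2 was at -0.40 and Adpgk, a glucokinase that uses ADP, at -0.39. Aldoc, higher in Dnmt1KO, and Adpgk, lower, had genotypes that did not overlap, as in 8.14% and 8.56% of all genes. Neither passed the test. Without Dnmt1KO replicate 1, Ldhb was at 0.18, Aldoc at 0.32 and Adpgk at -0.21.

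Of 12 transporters and their partners that bring glucose in or take lactate out, 11 were tested, 5 were higher and 1 lower by 0.2 or more, with a median of 0.13, and 7 of the 11 were highest in Dnmt1KO replicate 1. Leaving that sample out gave 3 higher and 4 lower. The main glucose importer Slc2a1, at 85.8 and 88.3 CPM in the Dnmt1fl/fl samples and 155 and 55.4 CPM in Dnmt1KO replicates 1 and 2, had the sample order of Ldha. So did the lactate exporter Slc16a3, at 85.7 and 192 CPM, and at 296 and 79.6 CPM, and both were picked after their values were seen. Dnmt1KO replicate 2 alone was at -0.65 in Slc2a1 and -0.69 in Slc16a3 against the Dnmt1fl/fl mean, on the log2 scale. The glucose transporter Slc2a3 was at 5.85 and 12.1 CPM in the Dnmt1fl/fl samples and at 25.7 and 6.74 CPM in Dnmt1KO replicates 1 and 2, a log2 fold change of 0.85. Bsg, the chaperone of lactate transporters, had 0.45. Slc2a6, a lysosomal sugar transporter, had -0.40, with Dnmt1fl/fl replicate 2 the highest sample at 98.5 CPM. The monocarboxylate transporter Slc16a7 had -0.11, with Dnmt1KO replicate 1 the lowest sample at 26.5 CPM. Without Dnmt1KO replicate 1, Slc2a3 was at -0.42, Bsg at -0.10 and Slc16a7 at 0.35, and without Dnmt1fl/fl replicate 2, Slc2a6 was at 0.59.

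Genes of glycogen and sugar entry had a median log2 fold change of 0.09, with 3 of 10 higher and 0 lower by 0.2 or more, and 2 higher and 2 lower without Dnmt1KO replicate 1. The extremes were Pgm1, a phosphoglucomutase, at 0.42 and glycogen synthase Gys1 at 0.41, against Pgm2 at -0.15 and the branching enzyme Gbe1 at -0.06. Pgm1 was at -0.01 and Gys1 at 0.01 without Dnmt1KO replicate 1. Among regulators of fructose bisphosphate and of pyruvate dehydrogenase, 3 of 12 tested were higher and 1 lower, with a median of 0.06, and 3 were higher and 2 lower without that sample. Here the kinase Pdk3 was at 0.39 and Pfkfb1 at 0.38, and Pdpr was at -0.23 and Pfkfb3, which makes the activator of phosphofructokinase, at -0.16. Pfkfb3 was at 92 and 86.8 CPM in the Dnmt1fl/fl samples and at 74.7 and 85.2 CPM in the Dnmt1KO samples. Its genotypes thus did not overlap, as in 1 of the 12 genes toward lower, beside 8.56% of all genes. With Dnmt1KO replicate 1 left out, Pdk3 was at -0.04, Pfkfb1 at -0.08, Pdpr at 0.22 and Pfkfb3 at -0.07. In this list 4 of the 12 genes were highest in Dnmt1KO replicate 1, a share near the 38.8% of all genes.

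Pyruvate entry into mitochondria was covered by 8 genes, 3 higher and 1 lower by 0.2 or more, with a median log2 fold change of 0.12, and 0 higher and 1 lower without Dnmt1KO replicate 1. The pyruvate carrier genes Mpc1 and Mpc2 were at 0.27 and 0.23, and pyruvate carboxylase Pcx, present at 0.454 to 1.17 CPM, at -0.65. The pentose phosphate branch gave 5 of 8 genes higher and 0 lower, with a median of 0.21, but 0 higher and 3 lower without Dnmt1KO replicate 1. Transaldolase Taldo1 was at 0.56, Pgd, the second dehydrogenase of the branch, at 0.43 and the epimerase Rpe at -0.16. Taldo1 was at 178 and 203 CPM in the Dnmt1fl/fl samples and at 400 and 163 CPM in Dnmt1KO replicates 1 and 2, so it had the same sample order as Gapdh. Taldo1 was at -0.22, Pgd at -0.23, Mpc1 at 0.10 and Mpc2 at -0.04 without Dnmt1KO replicate 1.

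Partners and oxygen-dependent regulators of Hif1a, 12 tested of 13, had a median log2 fold change of 0.02, with 3 higher and 1 lower by 0.2 or more, and 2 higher and 3 lower without Dnmt1KO replicate 1. Egln3, a hydroxylase that marks HIF-1alpha for degradation, was at 0.71, with Dnmt1KO replicate 1 at 65.6 CPM and the other 3 samples between 23.6 and 33.5. Rbx1, a part of the ubiquitin ligase, was at 0.35. Arnt, the dimer partner of HIF-1alpha, was at -0.14 and Arnt2, at under 1 CPM, at -0.38. Egln3 was at -0.04, Rbx1 at -0.12 and Arnt at 0.05 without Dnmt1KO replicate 1. Known targets of the hypoxia response outside glycolysis, 15 tested of 19 symbols, gave 11 higher and 2 lower, with a median of 0.35, but 2 higher and 6 lower without Dnmt1KO replicate 1. Bnip3, a mitophagy receptor, was at 0.74 and Ddit4, an inhibitor of mTORC1, at 0.68, while the histone demethylase Kdm3a was at -0.26. Without Dnmt1KO replicate 1, Bnip3 was at 0.04, Ddit4 at 0.40 and Kdm3a at 0.05.

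Vegfa, a vascular growth factor and a known HIF target, was lower in both Dnmt1KO samples than in both controls. That pattern was seen in 1 of the 15 targets tested, Vegfa itself, and in 8.56% of all genes. The reverse, both Dnmt1KO samples higher, was seen in 4 of the 15, Ddit4 among them, and in 8.14% of all genes. Vegfa was at 87.7 and 87.6 CPM in the Dnmt1fl/fl samples, and at 54.8 and 53.5 CPM in Dnmt1KO replicates 1 and 2. Replicates were nearly equal and the genotypes far apart, with a pooled SD of 0.02 on the log2 scale. The log2 fold change was -0.70 (standard error 0.20, edgeR unadjusted p = 0.0159, adjusted p = 1.00), and it stayed between -0.71 and -0.68 when any 1 sample was left out. It did not pass the test over all genes.

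**Figure D3:**
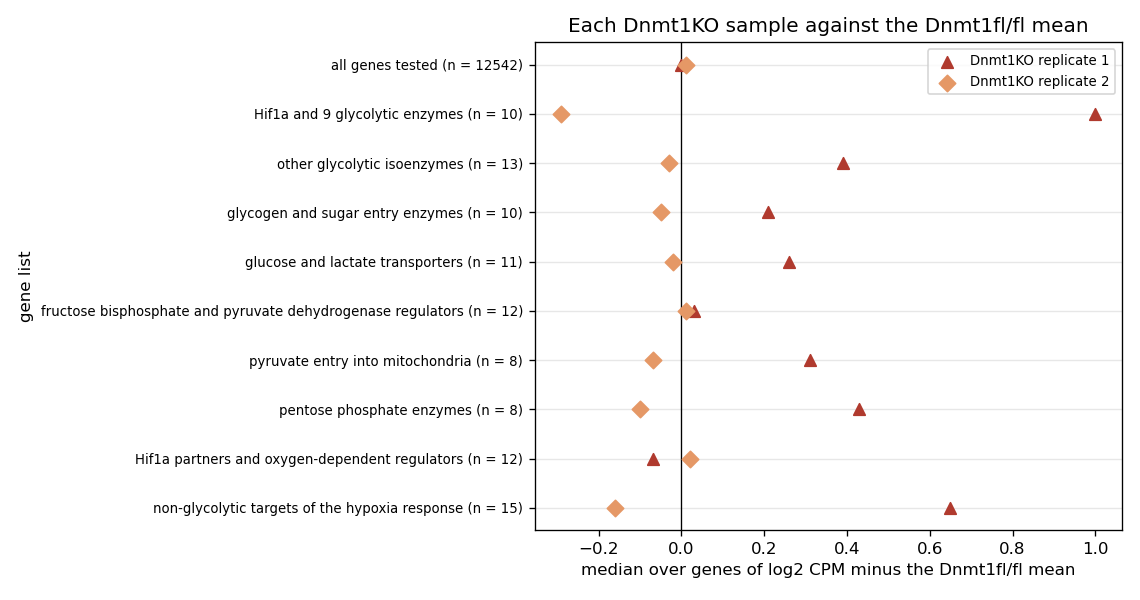
For each gene list, the median over its tested genes of log2 CPM in a Dnmt1KO sample minus the mean of the Dnmt1fl/fl samples, as a red triangle for replicate 1 and an orange diamond for replicate 2. For Hif1a and the 9 enzymes the medians are 1.00 and -0.29, for the other targets of the hypoxia response 0.65 and -0.16, and for all genes 0.00 and 0.01.

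The genes whose pattern over the 4 samples lay nearest to the mean of the 10 members were found by the Euclidean distance of centred log2 CPM, among 7820 genes at 10 CPM or more in each sample. They were Retreg1 at a distance of 0.0302, Psmd13 at 0.0365, Tmsb4x at 0.0381, Mdh2 at 0.0421 and Gtf2h5 at 0.0506. Tmsb4x, which encodes an actin-binding peptide, was at 2676 and 3388 CPM in the Dnmt1fl/fl samples and at 5362 and 2419 CPM in Dnmt1KO replicates 1 and 2. Mdh2, the mitochondrial malate dehydrogenase, was at 94.8 and 114 CPM, and at 180 and 86 CPM. Nearest to Hif1a were Lin54 at 0.0315, Pkp4 at 0.0398 and Jmjd6 at 0.0406.

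Markers of some other cells were also highest in Dnmt1KO replicate 1, and those of others were not. All 8 neutrophil markers tested, of 11 listed, were highest in that sample, beside 38.8% of all genes. Csf3r among them differed little, at 158 and 137 CPM in the controls and 169 and 159 CPM in the Dnmt1KO samples. The summed level of the 8 was 228 and 328 CPM in Dnmt1fl/fl replicates 1 and 2, 904 in Dnmt1KO replicate 1 and 226 in Dnmt1KO replicate 2. The calprotectin gene S100a9 was at 5.55 and 60.5 CPM in the controls, and at 320 and 8.35 CPM in the Dnmt1KO samples. In 4 of the 8 markers (S100a8, S100a9, Cxcr2 and Mmp9) Dnmt1fl/fl replicate 2 was above Dnmt1fl/fl replicate 1, as in the 8 enzymes, and in the other 4 (Retnlg, Csf3r, Mmp8 and Ltf) it was below. Mesothelial and fibroblast markers, 7 of 7 tested, were also highest in Dnmt1KO replicate 1, with sums of 38.5 and 56.2 CPM in the controls and 112 and 25.3 CPM in the Dnmt1KO samples. B cell markers were lowest there in 7 of 7, with a sum of 130 CPM against 320 to 528 in the other samples. Ly6g, a defining neutrophil marker, had 1 and 8 counts in the controls and 79 and 1 in the Dnmt1KO samples, too few to be tested. The granule genes Ngp and Camp had no row among the genes counted here and could not be tested. T cell markers summed to 34.3 to 57.5 CPM and eosinophil and mast cell markers to 14.9 to 22.3 CPM, with no rise in Dnmt1KO replicate 1. The macrophage sum was 35295 and 34390 CPM in the controls and 17572 and 21301 CPM in the Dnmt1KO samples. Most of it came from Lyz2, the gene of the LysM promoter. Lyz2 alone was at 29531 and 28587 CPM in the controls and at 11351 and 15745 CPM in the Dnmt1KO samples. In every other macrophage marker the genotypes overlapped, so the lower sum rests on Lyz2. The part of other cells in the enzyme levels was not tested.

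Transcript length moved with the samples as well. The trend of all genes against length in Dnmt1KO replicate 1 was upward for short and downward for long transcripts, and it lay at 0.19 on the log2 scale at the length of Aldoa, 1549 bases, and at -0.25 at the length of Hk2, 5513 bases. After the trend was removed from each library, a step chosen after seeing the data, the gap between the Dnmt1KO samples was still 1.17 in Aldoa, 1.70 in Pgk1 and 1.43 in Ldha. The same 8 enzymes kept Dnmt1KO replicate 1 as the highest and Dnmt1fl/fl replicate 2 as the second sample. In Hk2 the correction turned the order, with Dnmt1KO replicate 1 now highest and 0.26 above Dnmt1KO replicate 2, so that this sample led in 9 of the 10 genes, against 44.9% of all genes after the correction. The log2 fold changes were fitted with limma in place of edgeR, and the same limma fit without the correction is the value to set beside them. Aldoa was at 0.60 without and 0.52 with the correction, Pgk1 at 0.40 and 0.36, and Ldha at 0.36 and 0.32. Gpi1 went from 0.37 to 0.41, Pfkl from 0.25 to 0.31 and Hk2 from -0.06 to 0.06. The median over the 10 genes was 0.34 without and 0.31 with the correction, and the adjusted p with it was 1.00 in limma for each.

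**Figure D4:**
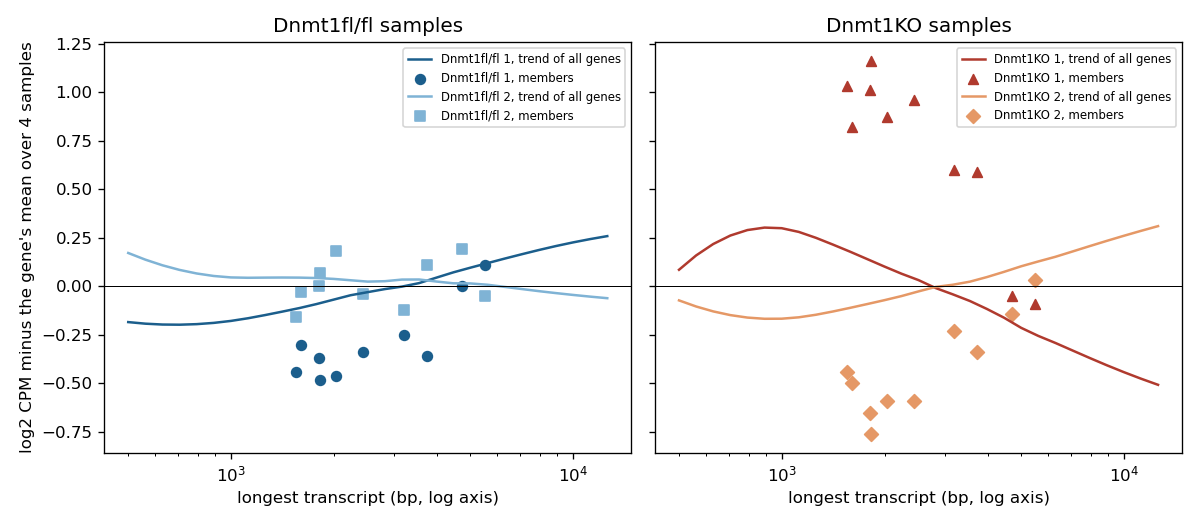
The deviation of log2 CPM from the gene's mean over the 4 samples, against the length of the longest transcript on a log axis, with lines for the loess trend of all genes in each sample and symbols for the 10 members. The members of Dnmt1KO replicate 1 with short transcripts lie up to 1.16 above 0, far over the trend line of that sample.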

How the data were processed

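Peritoneal macrophage RNA from 2 Dnmt1fl/fl and 2 Dnmt1KO samples was sequenced, grouped by the genotype in the labels. Per the submitters' processing notes, the authors used HISAT2 2.0.5, featureCounts 1.5.0-p3 and DESeq2 1.20.0 with build mm10, and the annotation is not given in the sources used here. The deposited values are estimated counts, partly fractional (72.6% to 76.4% exactly whole per sample, with no tolerance). How the fractions arose is not given in the sources used here. They were rounded to whole numbers. A second deposited table repeats 2749 of the rows and was not used.

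The main comparison was edgeR 4.0.16 quasi-likelihood (R 4.3.3), with TMM factors, the default filter on low counts, genotype as the only term, two-sided tests and Benjamini-Hochberg adjustment over 12542 genes. Standard errors were derived from the test statistic and the fold change. CPM were computed from counts and TMM factors, and log2 CPM with a prior count of 1. Totals of 20228071 to 24198943 counts put the floor of 3 counts at 0.124 to 0.148 CPM, which covers counting error only. The common dispersion of 0.0837 corresponds to a replicate coefficient of variation of 28.9%. The steps were tested on simulated data.

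DESeq2 1.42.0, limma-voom (limma 3.58.1), other scalings and filters, a replicate block and leaving out each sample were alternatives. A loess correction (span 0.5) on the longest GENCODE M21 transcript, followed by limma, the same limma fit without it, and a crossed pairing were chosen after seeing the data. The 10 genes were chosen by name and not by their values, but they and the lists were set with earlier results of these data known. Named pathway genes were the 2 with the highest positive and the 2 with the lowest negative log2 fold change in each list, plus Gapdh. Slc2a1 and Slc16a3 are outside this rule and were picked after their values were seen. Genes most like the members were the 5 nearest to their mean and the 3 nearest to Hif1a.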

Additional observations from a re-analysis of the deposited data

How the results depend on the processing

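With 2 samples a genotype, 1 sample can decide a direction. No gene passed the adjusted threshold of 0.05 in edgeR, 35 had an unadjusted p under 0.05, and DESeq2 called 1 gene by adjusted p. Leaving out each sample in turn, with a lone sample assumed to vary like the other genotype, gave 0 to 1061 genes by adjusted p, 43 to 3521 by unadjusted p and 5434 to 9229 with a log2 fold change of at least 0.2 in either direction. The highest of each came without Dnmt1KO replicate 2. Without the other samples the adjusted count was 2 without Dnmt1fl/fl replicate 1, 10 without Dnmt1fl/fl replicate 2 and 0 without Dnmt1KO replicate 1. Without a filter on low counts, 60 genes had an unadjusted p under 0.05. A threshold of 0.5 in place of 0.2 left 1050 genes and 4 of the 10 members higher, and a threshold of 1 left 149 genes and 0 members. Library totals alone moved the split of all genes from 2730 higher and 2476 lower to 1696 and 3352 and the median of all genes to -0.06, and put 1 member, Hif1a, lower.

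Over the 10 members, leaving out each sample gave 0 to 8 higher, 0 to 7 lower and a median of -0.29 to 0.98. Individual ranges were -0.14 to 0.02 for Hk2, -0.05 to 0.79 for Gpi1, -0.24 to 0.69 for Pfkl, -0.15 to 1.32 for Aldoa, -0.34 to 0.98 for Tpi1, -0.58 to 1.34 for Pgk1, -0.49 to 0.98 for Eno1, -0.42 to 1.14 for Pkm and -0.48 to 1.18 for Ldha. Among pathway genes they were -0.29 to 0.87 for Gapdh, -0.88 to 0.11 for Eno2, -0.38 to 0.21 for Gbe1, -0.01 to 0.75 for Pgm1, -0.98 to 0.59 for Slc2a6, -0.80 to 0.35 for Slc16a7, -0.42 to 1.51 for Slc2a3, -0.10 to 0.85 for Bsg, -0.91 to 0.22 for Pdpr, -0.04 to 0.72 for Pdk3, -0.08 to 0.78 for Pfkfb1 and -0.04 to 0.46 for Mpc2. They were -0.36 to 0.06 for Rpe, -0.22 to 1.07 for Taldo1, -0.23 to 0.88 for Pgd, -0.36 to 0.05 for Arnt, -0.04 to 1.20 for Egln3, -0.12 to 0.71 for Rbx1 and -0.67 to 0.05 for Kdm3a. Named genes that kept their direction but moved by over 1.5 times ranged from 0.18 to 1.18 for Ldhb, 0.32 to 0.94 for Aldoc, -0.59 to -0.21 for Adpgk, 0.01 to 0.72 for Gys1, -0.29 to -0.03 for Pgm2, -0.26 to -0.07 for Pfkfb3, -1.03 to -0.16 for Pcx, 0.10 to 0.42 for Mpc1, 0.04 to 1.21 for Bnip3 and 0.40 to 1.01 for Ddit4. With all 4 samples kept, Hk2 was the only one of the genes named by rule to change direction, at 0.06 after the length correction. The cause was not tested.

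The members' median was 0.34 with the replicate block in edgeR, and also 0.34 with limma on log2 CPM and no block, added after seeing the data. Deviations of same-numbered samples correlated at -0.35, so the numbers are not taken to pair the samples. A crossed pairing, chosen after seeing the data, gave 3 genes by adjusted p and 297 by unadjusted p.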
